A study of Mus musculus with 6 samples.

Results

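The adipocyte genes are 10 mouse genes, namely Cfd, Car3, Lpl, Fabp4, Adipoq, Plin1, Plin4, Pparg, Cidec and Lep. They were chosen by symbol, and all 10 were found among the 37991 genes counted in each library. RNA sequencing had been carried out on tumours derived from mouse cutaneous squamous cell carcinoma, a cancer of skin keratinocytes. The Kindlin-1 Null group (3 libraries) came from tumours in which Kindlin-1 had been knocked out, and the Kindlin-1 WT group (3 libraries) from tumours that express it. The Fermt1 gene encodes Kindlin-1, which binds the tails of beta integrins inside the cell. The sources used here do not give strain, host, tumour site, age or time, nor the number of clones behind each genotype. The comparison asked which genes differ with the loss of Kindlin-1.

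White adipocytes store triglyceride in a large lipid droplet. PPAR-gamma (Pparg) drives their differentiation, lipoprotein lipase (Lpl) and fatty acid-binding protein 4 (Fabp4) bring in and carry fatty acids, and perilipins (Plin1, Plin4) and Cidec coat and enlarge the droplet. Adiponectin (Adipoq), leptin (Lep) and adipsin (Cfd) are secreted by the fat cell, and carbonic anhydrase 3 (Car3) is among its abundant cytosolic enzymes. In skin these cells form a layer beneath the dermis. Of the 10 genes, Lpl, Fabp4 and Pparg are also known from macrophages, Fabp4 from capillary endothelium, and Car3, Lpl and Plin4 from skeletal muscle.

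The promoters below belong to Cfd, the member that fell most in the test, Cidec, which had no read in Null tumours, and Adipoq, the defining adipocyte gene, whose groups overlapped. Each line gives the 250 bases before a RefSeq start site in build GRCm38.p6, 5′ to 3′ on the gene's strand, for windows that hold no annotated exon base.
Cfd, chr10:79890603-79890852, + strand: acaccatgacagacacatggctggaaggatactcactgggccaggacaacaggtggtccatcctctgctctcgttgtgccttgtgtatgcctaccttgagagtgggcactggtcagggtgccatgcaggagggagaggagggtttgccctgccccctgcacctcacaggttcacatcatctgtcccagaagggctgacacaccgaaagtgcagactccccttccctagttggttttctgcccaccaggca
Adipoq, chr16:23146286-23146535, + strand: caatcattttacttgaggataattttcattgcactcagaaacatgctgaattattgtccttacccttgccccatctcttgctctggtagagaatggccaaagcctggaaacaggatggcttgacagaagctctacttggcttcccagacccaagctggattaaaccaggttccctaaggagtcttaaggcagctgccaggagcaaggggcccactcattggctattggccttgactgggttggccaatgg
Cidec, first start, chr6:113435761-113436010, - strand: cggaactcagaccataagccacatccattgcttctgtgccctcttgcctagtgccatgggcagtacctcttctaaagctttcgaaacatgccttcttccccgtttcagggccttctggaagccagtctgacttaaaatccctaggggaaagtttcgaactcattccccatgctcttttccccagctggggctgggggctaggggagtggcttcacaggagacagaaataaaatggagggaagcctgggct
Cidec, second start, chr6:113434765-113435014, - strand: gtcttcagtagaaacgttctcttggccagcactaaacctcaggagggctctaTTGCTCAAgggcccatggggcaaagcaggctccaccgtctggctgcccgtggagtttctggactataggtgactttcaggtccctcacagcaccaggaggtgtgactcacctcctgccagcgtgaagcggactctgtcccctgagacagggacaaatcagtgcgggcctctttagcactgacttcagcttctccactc
Capitals mark a match to 1 of 4 motifs searched on both strands, which do not overlap each other in these windows. The first was TTGCNNAA, the C/EBP type. The next was TATAAA, the TATA box. A nuclear receptor half-site was searched as AGGTCA. The last was direct repeat 1, the PPAR and RXR arrangement, which can contain the half-site. The only match in the 4 windows was TTGCTCAA, 198 to 191 bases before the second start of Cidec. The C/EBP type occurred in 9.56% of 32851 upstream windows of this length, the TATA box in 12.4%, the half-site in 14% and the direct repeat in 0.338%. The RefSeq table matched 7 of the 10 genes by symbol, with none for Car3, Lpl and Fabp4.

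Depth and genotype set the frame for the values. Reads assigned to genes ranged from 1138318 to 31487255 in the Null libraries and from 161711 to 15529242 in the WT libraries, and 3 reads amounted to 0.0951 to 2.76 CPM (counts scaled to a common library total of 1000000) in Null and 0.187 to 18.4 CPM in WT libraries. Library totals behind CPM values are scaled with TMM factors, and errors are SD over 3 libraries. The titles give WT libraries 1 and 2 one mouse number and Null libraries 2 and 3 another, so that n = 3 counts libraries and may count 2 animals a group. The file of Null library 3 carries another mouse number than its title, so the Null pair is uncertain, as are the fits that use it, which are those with both groups merged by mouse and with a random mouse effect. Fermt1 had 0, 2 and 2 reads in Null libraries 1 to 3 and 16, 2 and 1040 reads in WT libraries 1 to 3. Of 11 keratinocyte markers Krt1 and Dsg3 had no read, and Krt5 had 0, 5 and 2 reads in Null and 5, 0 and 5 reads in WT libraries. Among the others, Itgb4 stood at 192 ± 41.9 CPM in Null and 263 ± 46.1 CPM in WT, and Trp63 at 22.9 ± 4.17 CPM in Null and 15 ± 9.06 CPM in WT.

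The label of the gene group holds only in part in these tumours. Of the markers of the mature fat cell, Plin1 had 1 read and Lep 2 reads over all 6 libraries. Adipoq had 34 reads, 33 of them in 2 libraries, and reached 11.7 CPM in WT library 1. Cfd, Car3, Lpl and Fabp4, which had 288 to 2087 reads each, carried most of the group's level. In bulk RNA, fewer adipocytes, less RNA per adipocyte and less RNA from other cells that carry these genes cannot be told apart.

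Null tumours had much less Cfd, Car3 and Lpl, no detected Cidec and little Plin4, while Fabp4 and Pparg overlapped between the groups. Of the 10 genes 4 had enough reads to be tested, 3 of these fell in Null tumours and 0 rose, in edgeR's quasi-likelihood test at a Benjamini-Hochberg adjusted p under 0.05. Over all 11887 tested genes 5.79% changed, 3.52% falling and 2.26% rising (688 genes, 419 lower and 269 higher), while limma-voom with a random mouse effect gave 961, 428 lower and 533 higher. With 1 library left out, 1 of the 10 genes (Cfd) fell without Null library 3 or without WT library 1, and 2 or 3 fell in the other fits. Passing the expression filter took about 3.07 CPM, before TMM scaling, in at least 3 libraries. That level was reached by Cfd in 0 and by Car3 in 1 of the 3 Null libraries and by both in all 3 WT libraries. Both therefore entered the test only because they were high in WT, and the count over the tested members is a description. Lpl and Fabp4 reached it in all 6 libraries. Further fits merged the libraries that share a mouse number, in both groups or in WT only, or gave the mouse a random effect in limma-voom. The other 6 genes are given by their reads and by an exact permutation test over the 6 libraries, whose smallest possible p is 0.1, two-sided.

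**Figure D1:**
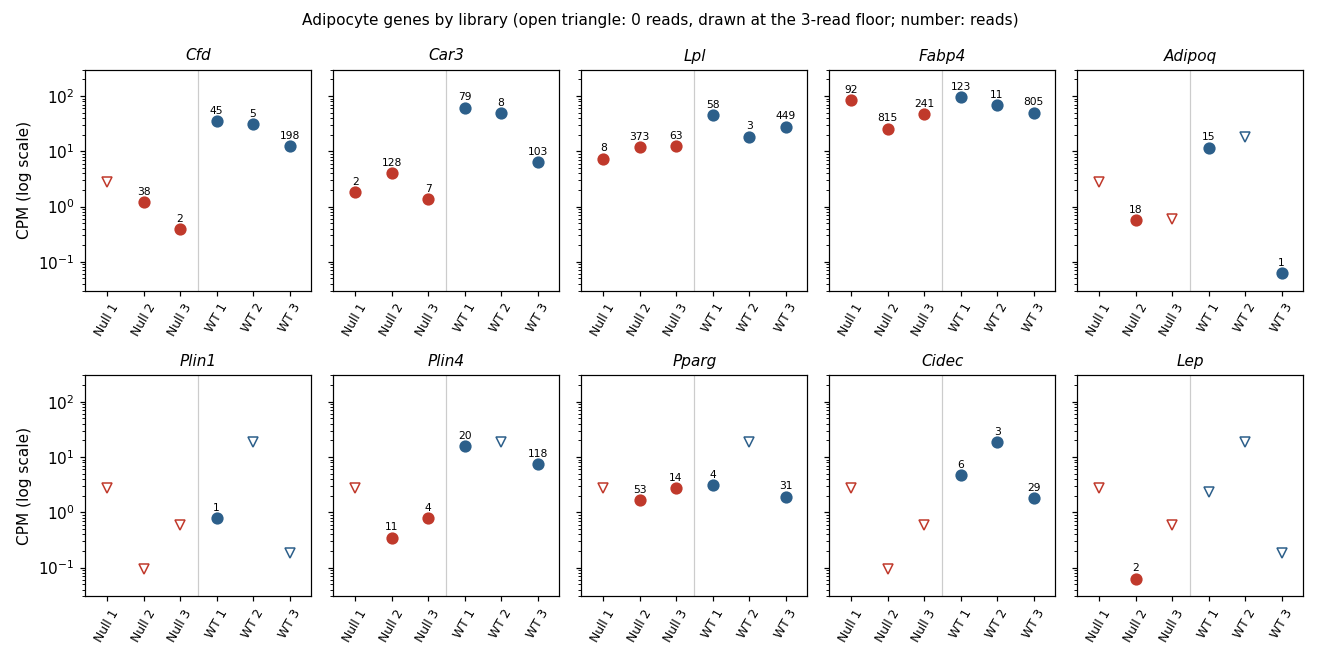
CPM (log axis) of the 10 adipocyte genes in Null libraries 1 to 3 (red, left) and WT libraries 1 to 3 (blue, right), 1 panel a gene. Numbers are reads, and open triangles mark 0 reads at the height of 3 reads. With 0 reads taken as 0 CPM, Cfd, Car3, Lpl and Cidec have every Null value under every WT value, as do 14.3% of tested genes. The Cidec triangle of Null library 1, at 2.76 CPM, is drawn above WT library 3 (1.81 CPM). Adipoq has reads mainly in Null library 2 (18) and WT library 1 (15).

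Among the secreted products, Cfd (ENSMUSG00000061780) fell most. Adipsin is complement factor D, the serine protease that cleaves factor B in the alternative pathway. Cfd had 0, 38 and 2 reads in Null libraries 1 to 3, or 0, 1.2 and 0.393 CPM. In WT libraries 1 to 3 it had 45, 5 and 198 reads, or 35.1, 30.7 and 12.4 CPM. The groups did not overlap, and all Null libraries lay below all WT libraries for 14.3% of tested genes. Cfd averaged 0.533 ± 0.614 CPM in Null and 26.1 ± 12.1 CPM in WT tumours and fell 25.9-fold (log2 fold change -4.69, SE 0.62, edgeR adjusted p = 0.00125). Its call held in each of the 6 fits with 1 library left out, with adjusted p between 0.000723 and 0.0131 (edgeR). Without Null library 2, which holds 38 of the 40 Null reads, the log2 fold change was -6.12, and with a random mouse effect it was -3.94 (limma-voom adjusted p = 0.0153).

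Adipoq (ENSMUSG00000022878), encoding the fat cell hormone adiponectin, was seen in single libraries of both groups. It had 0, 18 and 0 reads in Null libraries 1 to 3, or 0, 0.571 and 0 CPM, and 15, 0 and 1 reads in WT libraries 1 to 3, or 11.7, 0 and 0.0624 CPM. The groups overlapped (exact permutation p = 0.7). WT library 1 stood highest, with an exact 95% Poisson interval of 6.56 to 19.3 CPM. The deepest WT library, number 3, with 0.00158 to 0.348 CPM, lay under Null library 2, with 0.338 to 0.902 CPM, apart from a narrow overlap of their intervals. Intervals cover counting error only. The ratio of pooled reads, WT to Null, was 1.92 (95% exact interval 0.916 to 3.99), and 0.129 (0.00311 to 0.82) without WT library 1, so its direction rested on that library. Without WT library 3 the ratio was 21.8 (10.2 to 45.8), and without Null library 2 Adipoq was at least 1.88-fold lower in Null against a floor of 3 reads over the group. Both libraries with more than 1 Adipoq read carry the letter L after the mouse number in their titles, a feature picked after the values were seen. The meaning of the letter is not given, and Null library 3, with 0 reads, has an R in its title and an L in its file.

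The balance of Cfd and Adipoq differed between libraries. In WT library 3 there were 198 reads of Cfd and 1 of Adipoq, and in WT library 1 there were 45 and 15. In Null library 2 they had 38 and 18 reads. Lep (ENSMUSG00000059201), the hormone leptin, had 0, 2 and 0 reads in Null libraries 1 to 3 and none in the WT libraries, at or under the floor of 3 reads in both groups (exact permutation p = 1).

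Lipoprotein lipase was lower in every Null library. The enzyme frees fatty acids from circulating triglyceride. Lpl (ENSMUSG00000015568) had 8, 373 and 63 reads in Null libraries 1 to 3, or 7.37, 11.8 and 12.4 CPM, and 58, 3 and 449 reads in WT libraries 1 to 3, or 45.3, 18.4 and 28 CPM. The 3 reads of WT library 2 leave an exact 95% interval of 3.8 to 53.9 CPM, which spans the Null values. Lpl averaged 10.5 ± 2.75 CPM in Null and 30.6 ± 13.6 CPM in WT tumours and fell 2.99-fold (log2 fold change -1.58, SE 0.35, edgeR adjusted p = 0.0227). The call was lost without Null library 1 (edgeR adjusted p = 0.0811), Null library 3 (0.059) or WT library 1 (0.0543), with log2 fold changes of -1.47, -1.7 and -1.23.

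Fabp4 (ENSMUSG00000062515), the lipid chaperone, was the most abundant of the 10 genes in Null tumours and did not pass. It had 92, 815 and 241 reads in Null libraries 1 to 3, or 84.7, 25.8 and 47.4 CPM, and 123, 11 and 805 reads in WT libraries 1 to 3, or 96, 67.6 and 50.2 CPM. Null library 1 lay inside the WT range, and the other Null libraries lay just under or well under it. The means were 52.7 ± 29.8 CPM in Null and 71.3 ± 23.1 CPM in WT tumours (log2 fold change -0.5, SE 0.4, edgeR adjusted p = 0.457). Across the fits with 1 library left out the log2 fold change ran from -0.97 to -0.13, with edgeR adjusted p between 0.208 and 0.883.

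Of the droplet proteins, Cidec was read only in WT libraries. Cidec promotes the fusion of small droplets into the single large droplet of white fat. Cidec (ENSMUSG00000030278) had no read in the 3 Null libraries, and 6, 3 and 29 reads in WT libraries 1 to 3, or 4.68, 18.4 and 1.81 CPM. The groups did not overlap (exact permutation p = 0.1), with every Null library lower, as for 14.3% of tested genes. Cidec itself was not among the tested genes. Over pooled reads the WT level was 2.18 CPM (95% exact interval 1.54 to 2.99), so that Cidec was at least 27.4-fold lower in Null against a floor of 3 reads over the Null group. The bound came to 4.47-fold without Null library 2, the deepest, and to 78.4-fold without WT library 3. At the WT pooled level the shallow Null library 1, with a floor of 2.76 CPM, could not have shown the gene reliably.

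Plin4 (ENSMUSG00000002831), a perilipin of small droplets, had 0, 11 and 4 reads in Null libraries 1 to 3, or 0, 0.349 and 0.787 CPM. In WT libraries 1 to 3 it had 20, 0 and 118 reads, or 15.6, 0 and 7.36 CPM. The 0 of WT library 2 lies under that library's floor of 18.4 CPM and makes the groups overlap (exact permutation p = 0.4). The ratio of pooled reads, WT to Null, was 19.9 (95% exact interval 11.6 to 36.5), and 12.2 (4.65 to 45.3) without Null library 2 or 34.8 (17 to 73.1) without WT library 3. Without Null library 1 Plin4 entered the test and fell (log2 fold change -4.32, SE 0.8, edgeR adjusted p = 0.0343), and likewise without WT library 2 (-4.58, SE 0.72, edgeR adjusted p = 0.00765). Plin1 (ENSMUSG00000030546), the perilipin of the mature fat droplet, had 1 read, in WT library 1. Neither group rose above the floor of 3 reads (exact permutation p = 1).

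Pparg (ENSMUSG00000000440), the nuclear receptor that drives adipocyte differentiation, was low and alike in range. It had 0, 53 and 14 reads in Null libraries 1 to 3, or 0, 1.68 and 2.75 CPM, and 4, 0 and 31 reads in WT libraries 1 to 3, or 3.12, 0 and 1.93 CPM (exact permutation p = 0.8). The ratio of pooled reads, WT to Null, was 1.13 (95% exact interval 0.727 to 1.72). It ran from 0.883 without Null library 2 to 1.56 without WT library 3. No change in Pparg was seen, and the interval, which covers counting error only, allows a modest change in either direction. In the alternative fits that tested Pparg its log2 fold change ran from -0.62 (SE 0.95) to -0.01 (SE 0.9). None called it (adjusted p of 0.78 or more in edgeR or DESeq2).

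Car3 (ENSMUSG00000027559), a cytosolic carbonic anhydrase of fat and slow muscle, varied widely among the WT libraries. It had 2, 128 and 7 reads in Null libraries 1 to 3, or 1.84, 4.06 and 1.38 CPM, and 79, 8 and 103 reads in WT libraries 1 to 3, or 61.7, 49.1 and 6.43 CPM. The groups did not overlap, but the deepest library of each came close, with exact 95% intervals of 3.38 to 4.82 CPM in Null library 2 and 5.25 to 7.8 CPM in WT library 3. Car3 averaged 2.43 ± 1.43 CPM in Null and 39.1 ± 29 CPM in WT tumours and fell 11.7-fold (log2 fold change -3.55, SE 0.79, edgeR adjusted p = 0.0261). The ratio of pooled reads, WT to Null, which the deep libraries dominate, was 2.99 (95% exact interval 2.39 to 3.76), and it was 7.46 without Null library 2, 1.89 without WT library 1 and 16.6 without WT library 3. The call was lost without Null library 1 (log2 fold change -3.44, edgeR adjusted p = 0.101), Null library 3 (-3.28, 0.077), WT library 1 (-2.33, 0.105) or WT library 2 (-3.4, 0.0505). Merging by mouse ended it in both groups (edgeR adjusted p = 0.243) or in WT only (0.0538), as did dropping the expression filter (0.116) and a random mouse effect (log2 fold change -1.27, limma-voom adjusted p = 0.309). The log2 fold change was -4.52 without Null library 2 and -4.29 without WT library 3, both still called.

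**Figure D2:**
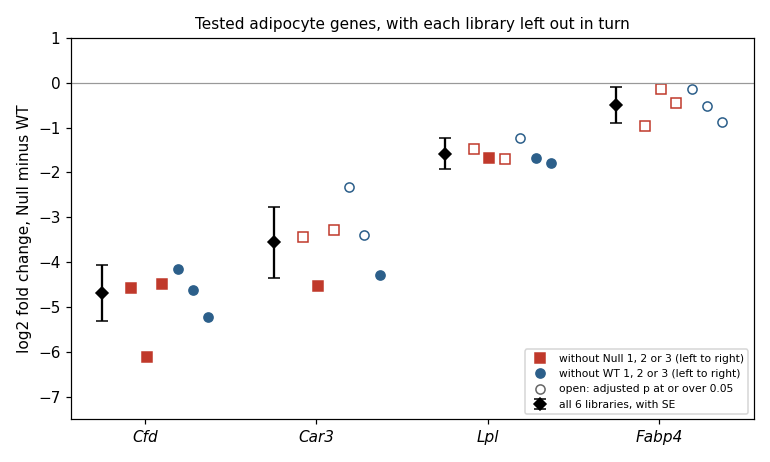
Log2 fold change, Null minus WT, of Cfd, Car3, Lpl and Fabp4 over all 6 libraries (diamond, with SE) and with each Null library (squares) or WT library (circles) left out in turn; open symbols have an edgeR adjusted p at or over 0.05. Cfd stays called between -6.12 and -4.16, while Car3 keeps its call in 2 and Lpl in 3 of the 6 fits, and Fabp4 in none.

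The order of the 10 genes differed between the groups. Levels between genes are given as CPM per kilobase of merged exons, averaged over 3 libraries. Merged exons came to 922 bases for Cfd and 4489 for Fabp4, so this order depends on the annotated lengths. By CPM alone Fabp4 led in both groups, with 52.7 in Null and 71.3 in WT tumours, where Cfd had 26.1. In Null tumours Fabp4 led with 11.7, followed by Lpl (1), Car3 (0.847), Cfd (0.578), Pparg (0.501), Adipoq (0.138), Plin4 (0.0655) and Lep (0.0063), and Cidec and Plin1 were at 0. Fabp4, with 5.75 to 18.9 over the Null libraries, lay above the range of Lpl (0.703 to 1.18), whereas Lpl, Car3, Cfd and Pparg overlapped. In WT tumours Cfd led with 28.3, followed by Fabp4 (15.9), Car3 (13.6), Cidec (4.48), Lpl (2.92), Adipoq (2.84), Plin4 (1.33), Pparg (0.571) and Plin1 (0.056), and Lep was at 0. The WT ranges of Cfd (13.4 to 38.1), Fabp4 (11.2 to 21.4) and Car3 (2.24 to 21.5) overlapped, as did those of Cidec (0.975 to 9.93), Lpl (1.76 to 4.32) and Adipoq (0 to 8.48).

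The genes nearest in pattern to each tested member were found from centred log2 CPM over the 6 libraries, by the root-mean-square difference in log2 units. For Cfd these included Ttn (0.29) and Myh4 (0.51), and for Car3 they were Col8a2 (0.32), Eln (0.4) and Atp2a1 (0.61). Lpl lay nearest to Cdh11 (0.22), Nr6a1 (0.23) and ENSMUSG00000069056 (0.23), and Fabp4 to Fbln7 (0.28), Guca1a (0.3) and Hcfc1r1 (0.31). These are the closest of all tested genes, so a pair chosen beforehand will nearly always lie farther apart. Between adipocyte genes, Cfd and Car3 differed by 1.09, Lpl and Fabp4 by 0.88, and Cfd and Fabp4 by 2.55. In nearness to Cfd, Car3 ranked 39 and Fabp4 ranked 3429 among the tested genes. Cfd ranked 68 in nearness to Car3, and Fabp4 ranked 4501 in nearness to Lpl. Libraries share depth and group here, so nearness includes both.

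Skeletal muscle markers were also lower in Null libraries. Of 20 markers 19 entered the test, 15 fell and 0 rose, with a median log2 fold change of -3.31 against 0.01 over all tested genes. Of the 19, 14 did not reach the filter level in all Null libraries and so entered the test through WT, which makes the count and the median a description. The count that fell was 9 without Null library 1, 9 without WT library 1 and 7 with a random mouse effect (limma-voom), and 11 to 15 in the other fits without 1 library. Their summed level was 138 to 207 CPM in Null and 747 to 1960 CPM in WT libraries. The 6 with the largest change were the sarcomere genes Ttn (log2 fold change -4.58), Tnnt3 (-4.2), Myh4 (-3.86), Neb (-3.65) and Actn3 (-3.64), and the muscle creatine kinase Ckm (-3.61), with edgeR adjusted p of 0.000289, 0.000614, 0.00436, 0.00323, 0.0283 and 0.00172. The call of Actn3 was lost without Null library 1 or 3 or WT library 1 or 2 (highest edgeR adjusted p = 0.0988), and its log2 fold change ran from -6.04 without Null library 2 to -2.12 without WT library 1. Without Null library 2 those of Ttn, Tnnt3, Myh4 and Ckm were -5.69, -5.08, -6.09 and -4.58, and without WT library 1 that of Neb was -2.82. With a random mouse effect Myh4 (limma-voom adjusted p = 0.058) and Actn3 (0.193) lost their calls, and the log2 fold changes of Tnnt3, Neb and Ckm were -3.38, -2.86 and -2.94. Actn3 was also lost in DESeq2 (adjusted p = 0.0717), with no filter on low counts (edgeR, 0.178) and merged by mouse in both groups (0.169). The most abundant markers that did not pass were Eno3 (-0.62, SE 0.27), Tnnt1 (-2.15, SE 0.61) and Myh2 (-2.43, SE 0.78). The summed level of the 10 adipocyte genes was 94, 45.6 and 65.1 CPM in Null libraries 1 to 3 and 274, 184 and 108 CPM in WT libraries 1 to 3. Fabp4, which did not pass, made up 84.7, 25.8 and 47.4 CPM of these sums in Null and 96, 67.6 and 50.2 CPM in WT. The part of muscle tissue in the fall of Cfd, Car3, Lpl and Plin4 was not tested.

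**Figure D3:**
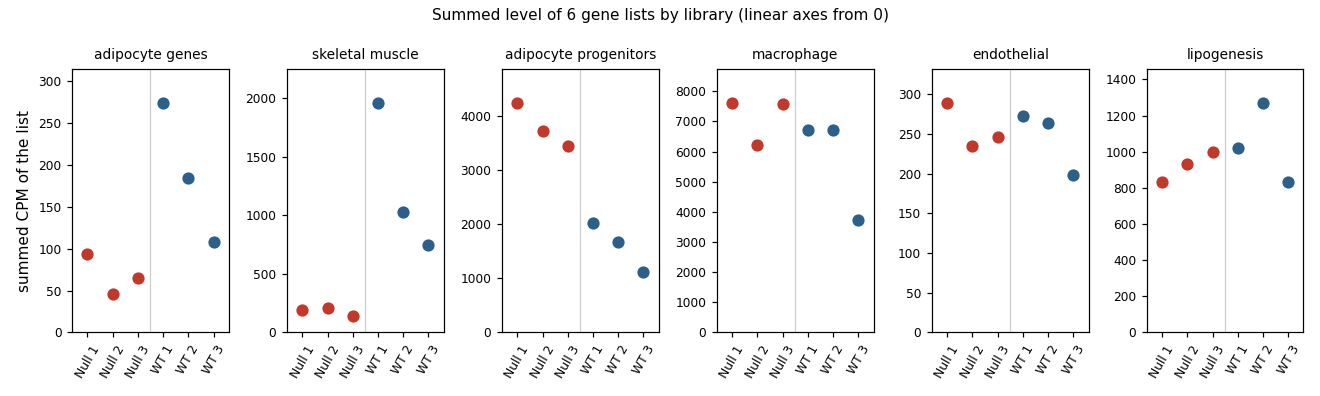
Summed CPM of 6 gene lists in Null libraries 1 to 3 (red, left) and WT libraries 1 to 3 (blue, right), on linear axes from 0, 1 panel a list. The adipocyte genes (45.6 to 94 CPM in Null, mostly Fabp4, and 108 to 274 CPM in WT) and the muscle markers lie lower in each Null library. The progenitor markers, mostly Dcn, lie higher, and the macrophage, endothelial and lipogenesis lists overlap.

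Macrophage and endothelial markers, whose cells can also carry Lpl, Fabp4 or Pparg, showed no called gene. None of 12 macrophage markers passed (median log2 fold change -0.01), and the most abundant were Lyz2 (1.17, SE 0.46), C1qa (-0.23, SE 0.28) and C1qc (-0.4, SE 0.29). Their summed level was 6210 to 7610 CPM in Null and 3720 to 6720 CPM in WT libraries. None of 10 endothelial markers passed (median 0.1), among them Pecam1 (0.41, SE 0.28), Esam (-0.24, SE 0.25) and Cdh5 (0.06, SE 0.35), with a summed level of 235 to 289 CPM in Null and 198 to 273 CPM in WT libraries. No marker of either list was at 0. Of 10 sebocyte markers, of lipid-rich gland cells, 2 were tested, Mc5r and Awat1 had no read, and Acsbg1, an acyl-CoA synthetase, fell (log2 fold change -2.99, edgeR adjusted p = 0.00975). It reached the filter level in WT libraries alone. Its call was lost without Null library 3 (edgeR adjusted p = 0.0531) or WT library 3 (0.0571), and it stood at -3.7 without Null library 2 and at -2.4 with a random mouse effect. Soat1, a cholesterol-esterifying enzyme, stood at 0.67 (SE 0.25) and did not pass.

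No tested gene of lipid synthesis, fatty acid uptake or droplet coating outside the 10 passed. None of 13 tested lipogenesis genes passed (median log2 fold change -0.04), with Acly at 0.37 (SE 0.24), Scd2 at -0.17 (SE 0.26) and the fatty acid synthase gene Fasn at -0.63 (SE 0.3). Of 9 tested genes of fatty acid uptake and of Lpl's partners none passed (median 0), with Acsl4 at 0.22 (SE 0.26), and the transporters Slc27a1 at 0 (SE 0.27) and Slc27a4 at -0.12 (SE 0.27). Gpihbp1, which holds lipoprotein lipase on capillaries and was picked after its values were seen, averaged 34.1 ± 18.5 CPM in Null and 19.7 ± 4.29 CPM in WT tumours (edgeR adjusted p = 0.22). None of 5 tested droplet genes outside the 10 passed (median -0.01, range -0.45 to 1.32). Plin2, the perilipin of non-adipose cells, had 192 ± 33 CPM in Null and 194 ± 19.8 CPM in WT tumours, and Plin3 and Bscl2 stood at 0.84 (SE 0.27) and -0.21 (SE 0.27).

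Of 7 tested lipolysis genes 1 rose and 1 fell (median log2 fold change -0.1). Mgll, which cleaves monoacylglycerol in the last step, had 51.6, 66.8 and 53.9 CPM in Null libraries 1 to 3 and 213, 203 and 165 CPM in WT libraries 1 to 3. It fell 3.31-fold (log2 fold change -1.73, SE 0.25, edgeR adjusted p = 0.00207) and kept its call in all 6 fits with 1 library left out. Abhd5, the activator of adipose triglyceride lipase, rose 2.54-fold to 34.6 ± 6.3 CPM in Null, against 15.2 ± 3.88 CPM in WT tumours (edgeR adjusted p = 0.0341). Leaving out any Null library or WT library 3 ended the call of Abhd5 (highest edgeR adjusted p = 0.182), as did merging by mouse in both groups (edgeR, 0.0812) and DESeq2 (adjusted p = 0.069). Pnpla2, that lipase, stood at -0.1 (SE 0.34), and Pde3b and Prkar2b at 0.39 (SE 0.23) and 0.65 (SE 0.3).

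Among 11 tested adipogenic regulators 1 rose and 0 fell (median log2 fold change 0.32). Cebpd, a C/EBP factor of early adipogenesis, rose 3.04-fold to 127 ± 59.5 CPM in Null, against 34.2 ± 21.8 CPM in WT tumours (edgeR adjusted p = 0.0395). Its call was lost without Null library 1 or 3 or WT library 1 or 2 (highest edgeR adjusted p = 0.184), when the WT libraries were merged by mouse (edgeR, 0.0798) and under a random mouse effect (limma-voom, 0.0805), and without WT library 3 its log2 fold change was 2.36. Srebf1 stood at -0.46 (SE 0.23), Rxra, the partner of PPAR-gamma, at -0.08 (SE 0.24), and Cebpb at 0.38 (SE 0.35). Of 10 tested adipocyte progenitor markers 2 rose and 0 fell (median 0.52), namely Dcn, the matrix proteoglycan decorin, and Cd55, a complement regulator on cell surfaces. Dcn rose 2.71-fold to 3240 ± 359 CPM in Null, against 1200 ± 390 CPM in WT tumours (edgeR adjusted p = 0.0255), and makes up most of the list's summed level. Without Dcn the list summed to 526 to 617 CPM in Null and 329 to 458 CPM in WT libraries. Its call was lost without Null library 1 or 3 or WT library 2 (highest edgeR adjusted p = 0.0887) and when libraries were merged by mouse in both groups (0.092) or in WT (0.0607). Cd55 rose 4.76-fold (edgeR adjusted p = 0.0129), a call lost without Null library 3 (0.078) or WT library 3 (0.0799). Cd34 (0.65, SE 0.3), Ly6a (0.47, SE 0.26) and Pdgfra (0.56, SE 0.24) did not pass. Pi16, picked after its values were seen, went the other way without passing, with 12.5 ± 2.95 CPM in Null and 31.1 ± 9.09 CPM in WT tumours and every Null library below every WT library (log2 fold change -1.25, SE 0.35, edgeR adjusted p = 0.0558).

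Among further genes of mature and thermogenic fat 5 were tested, of which 2 rose and 0 fell. Over all tested genes 2.26% rose and 3.52% fell. Of 12 matched genes of mature adipocytes 3 were tested and 1 rose. Sncg, gamma-synuclein of neurons and fat, rose 17.9-fold to 36.2 ± 17.8 CPM in Null, against 4.05 ± 2.48 CPM in WT tumours (edgeR adjusted p = 0.00235), and its log2 fold change of 4.16 was 3.51 without Null library 3 and 2.9 without WT library 3. Ghr (0.15, SE 0.24) and Acp5 (-1.03, SE 0.65) did not pass. Of the 9 untested genes 1 lay lower and 1 higher in every Null library, both picked after their values were seen. Over all tested genes the groups did not overlap for 30.5%, in either direction, and all Null libraries lay lower for 14.3%. These shares do not cover untested genes, where a few reads in a shallow library can set the order. Cyp2e1, a cytochrome P450, had 0, 14 and 2 reads in Null libraries 1 to 3 (0.279 ± 0.243 CPM) and 13, 5 and 17 reads in WT libraries 1 to 3 (14 ± 15.2 CPM). Hcar2, the nicotinic acid receptor, had 6.56 ± 6.31 CPM in Null and 1.01 ± 1.2 CPM in WT tumours. Of 7 thermogenic genes 2 were tested, and Ucp1, the brown fat uncoupling protein, had 2 reads over all 6 libraries. Dio2, the deiodinase that activates thyroid hormone, rose 8.73-fold to 37.4 ± 33.1 CPM in Null, against 2.14 ± 2.49 CPM in WT tumours (edgeR adjusted p = 0.019). The call of Dio2 was lost without Null library 1 (log2 fold change 2.22, edgeR adjusted p = 0.0652) or WT library 3 (4.54, 0.127) and when the WT libraries were merged by mouse (0.05), and with a random mouse effect its log2 fold change was 2.47. Otop1 stood at -0.11 (SE 0.47). None of 7 tested adipokine and insulin response genes passed (median 0.14), with Adipor1 at 0.14 (SE 0.29), Nampt at 0.88 (SE 0.28) and Adipor2 at 0.24 (SE 0.3). The list was spread widely, from Irs1 at -1.72 (SE 0.52, edgeR adjusted p = 0.0687) to Agt at 5.98 (SE 1.75, 0.0625). Agt had 0, 1 and 0 reads in WT libraries 1 to 3. Of 7 untested genes of that list 2 lay lower in every Null library, beside 14.3% of all tested genes, a share that does not cover untested genes. Retn, the hormone resistin, had 0.161 ± 0.146 CPM in Null and 4.64 ± 3.4 CPM in WT tumours. The leptin receptor gene Lepr had 1.8 ± 0.387 CPM in Null and 5.78 ± 3 CPM in WT tumours. Sncg and Dio2, which rose, and Cd55 reached the filter level in all Null libraries but not in all WT libraries. The counts of risen genes that include them are therefore a description.

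**Figure D4:**
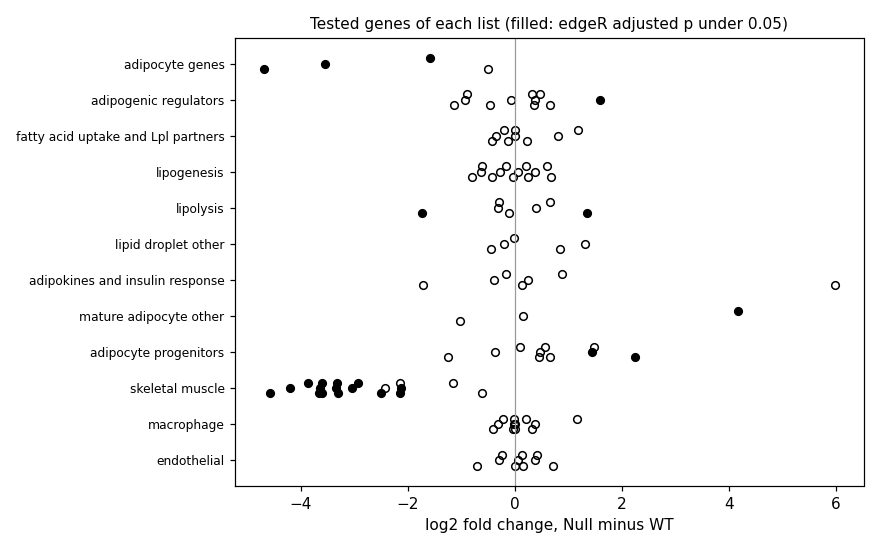
Log2 fold change, Null minus WT, of the tested genes of 12 lists, 1 row a list and 1 point a gene; filled points have an edgeR adjusted p under 0.05. The 3 called adipocyte genes lie at -4.69, -3.55 and -1.58 and the muscle markers between -4.58 and -0.62. Lipogenesis (-0.8 to 0.67), uptake (-0.43 to 1.18) and droplet genes (-0.45 to 1.32) have medians near 0 and none called.

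In the families of the leading members calls went both ways or were absent. Of 7 tested carbonic anhydrases Car3 was the 1 that fell, and Car5b, a mitochondrial member, rose (log2 fold change 1.73, edgeR adjusted p = 0.0166), a call lost without Null library 1 (0.0865). Car2 (0.45, SE 0.43), Car13 (1.17, SE 0.38) and Car9 (-0.07, SE 0.68) did not pass. In the fatty acid-binding family 2 of 10 were tested, and Fabp5, the epidermal form, averaged 44.4 ± 6.46 CPM in Null and 23.6 ± 10.1 CPM in WT tumours (log2 fold change 1.18, SE 0.37, edgeR adjusted p = 0.0736). In the alternative complement pathway, in which adipsin acts, C3, the central component, fell 4.91-fold to 10.4 ± 4.77 CPM in Null, against 72.5 ± 54.1 CPM in WT tumours (edgeR adjusted p = 0.0291). Its call was lost without Null library 1 or 3 or WT library 1 or 2 (highest edgeR adjusted p = 0.12), when low counts were not filtered (edgeR, 0.0527), when the WT libraries were merged by mouse (edgeR, 0.0514) and under a random mouse effect (log2 fold change -1.11, limma-voom adjusted p = 0.157), and without WT library 3 the log2 fold change was -2.89. Cd55, named above, also belongs here. Cfp (0.46, SE 0.24), C3ar1 (-0.33, SE 0.3) and Cr1l (0.88, SE 0.3) did not pass. In the keratinocyte list 1 of 7 tested genes rose and 1 fell. Krt14 fell 4.1-fold (edgeR adjusted p = 0.01; 0.0502 in limma-voom with a random mouse effect). Krt15 rose 4.77-fold (edgeR adjusted p = 0.0283), a call lost without Null library 1 (log2 fold change 1.92, 0.107) or WT library 3 (1.56, 0.204), and Itga6 stood at 0.59 (SE 0.26). Krt15 reached the filter level in all Null libraries and in 1 WT library.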

How the data were processed

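Total RNA from 6 tumours (3 Kindlin-1 Null, 3 Kindlin-1 WT, grouped by the genotype label) was sequenced. Each deposited file is 1 library's raw count of reads for every Ensembl gene, with no normalization by the authors. TopHat2, Cuffdiff, DESeq2 and build mm9 are named per the submitters' processing notes, with no role or version; how reads were counted, on which annotation and with or without strand, is not given in the sources used here, so overlapping antisense reads cannot be told apart. Reads assigned to no gene (4.63% to 12%), to several genes (1.72% to 2.11%) or aligned several times (32.9% to 40%) were left out. The share in no gene was 4.63% to 5.84% in Null and 7.15% to 12% in WT libraries. Its bearing on the comparison was not tested.

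Symbols came from GENCODE M21 by identifier (32919 of 37991 matched, 86.6%), as did merged exon lengths. Promoters came from RefSeq, build GRCm38.p6, not the build named by the submitters, and no other coordinates are given.

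Null was tested against WT in R 4.3.3 with edgeR 4.0.16 (quasi-likelihood, robust, TMM, default filter), adjusted by Benjamini-Hochberg over all 11887 tested genes at 0.05; log2 fold changes are Null minus WT, and SE is the fold change's size over the root of its F statistic. The fit was tested on simulated counts. Alternatives were DESeq2 1.42.0, limma-voom (limma 3.58.1) with a random mouse effect, other scalings and filters, libraries merged by mouse and each library left out. The titles name 2 mouse numbers a group, and nothing says that libraries sharing a number are separate animals. The p-values therefore measure the spread between libraries, which may be partly technical. Nearness used log2 CPM with a prior count of 3. In the lists, all called genes are named (the 6 largest changes where more passed) with the 3 most abundant that did not pass. Some genes that these rules name are not reported here. Members and lists were chosen with earlier results of these data known.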

Additional observations from a re-analysis of the deposited data

How the results depend on the processing

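The number of the 10 adipocyte genes that fell was 3 over all libraries, 1 to 3 with 1 library left out, with the low of 1 (Cfd alone) without Kindlin-1 Null replicate 3 or Kindlin-1 WT replicate 1, and 5 in DESeq2, which tests without the expression filter and adds Plin4 (adjusted p = 0.00438) and Cidec (6.8e-05). None rose under any setting run. With no filter in edgeR 4 fell, Plin4 and Cidec (adjusted p = 0.000418 and 0.00123) taking the place of Car3. Merging by mouse in both groups gave 4, a random mouse effect in limma-voom 2, and 10 CPM in 3 libraries gave 2 because Car3 was no longer tested. Genes changed in all, 688, ranged from 179 (without Null library 1) to 855 with 1 library left out, with 225 without Null library 3 and 281 without WT library 3. A random mouse effect in limma-voom gave 961, with 533 higher and 428 lower, against 269 higher and 419 lower of the 688. Scaling by library totals or DESeq2 size factors gave 677 and 699, with a median log2 fold change of -0.05 and 0 against 0.01. DESeq2's median was -0.31 over the 22312 genes it fitted without a filter. No called gene of the lists changed sign under any setting run. Over single genes and settings the call or its absence was kept 383 times and lost 95 times. No paired analysis was possible because replicate numbers were given in deposit order and tie no Null library to a WT library. Depth limits the low members most: in WT library 2, 3 reads amount to 18.4 CPM.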
